A study of Mus musculus with 229 samples.

Results

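The ribosomal protein genes encode the structural proteins of the cytoplasmic ribosome. They were taken as the gene symbols made of Rpl or Rps and a number, with an optional letter (a, x, y or l) and a further number, together with Rplp0, Rplp1, Rplp2 and Rpsa. The rule found 87 genes in 4 droplet single-cell tables, of which 83 were in every table, and the tables held between 20463 and 27933 gene symbols. By name, 52 belong to the large subunit and 35 to the small subunit. Each table held 86 of them except the dpi 35 table, which held 84.

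A ribosome joins a small subunit, which reads the messenger RNA, to a large subunit, which forms the peptide bonds. Ribosomal protein messages often begin with a C followed by a run of pyrimidines, called a 5′ terminal oligopyrimidine (TOP) tract, through which mTOR signalling and the protein Larp1 control their translation. A few of the genes have close paralogs. Rps27l, a paralog of Rps27, is known as a target of p53, and Rpl22l1, a paralog of Rpl22, can take the place of Rpl22 in the ribosome. In the brain, glial progenitors divide while neurons and myelinating oligodendrocytes have left the cell cycle.

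The series holds 229 samples of mouse cells in 10 groups, and 4 droplet libraries carry the values reported here. One Drop-seq library came from cortex of PDGFRa-gfp mice between postnatal days 1 and 3, and a further Drop-seq library from cortex of hGFAP-gfp mice at postnatal days 5 and 6. In those lines GFP marks cells in which the Pdgfra gene or a human GFAP promoter is active, and sorting kept GFP-positive cells that did not take up 7-AAD, which stains dying cells. The tumour libraries came from mouse glioblastoma in the region of the cerebral cortex at dpi 25 (Drop-seq, no genotype given) and dpi 35 (10x, genotype given as GBM). The labels do not expand dpi, do not say how the tumours were made, and give no sort for them. They name no animals, and 1 library stands for each group, so no difference below was tested against a spread between replicates. Intervals are exact 95% intervals and cover the counting of UMIs (unique molecular identifiers, 1 per captured RNA molecule) only.

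The libraries held 3184 (PDGFRa-GFP), 815 (hGFAP-GFP), 4955 (dpi 25) and 6054 (dpi 35) cells, with median depths of 2014, 4167, 2063 and 6582 UMIs per cell. The labels give 2000 cells for hGFAP-GFP and 6796 for dpi 25. No cell barcode was shared between libraries. Clusters were named from markers, as progenitor-like (oligodendrocyte progenitor cells, OPC, their more primitive precursors, radial glia and cycling clusters), neuronal-like, oligodendrocyte-like, myeloid-like and others. In the tumours the progenitor and astrocyte classes were joined as tumour glial-like, a class that may also hold glia of the host. Levels of some of the naming markers describe the classes and are no separate check of the names. They are given in CPM, UMIs of the gene per 1000000 UMIs of the class. C1qb, a complement gene of microglia, was at 3524 CPM in myeloid-like and 11.96 in tumour glial-like cells at dpi 25. At dpi 35 it was at 6647 and 143. Mbp, which encodes myelin basic protein, was at 7486 and 114 in oligodendrocyte-like and tumour glial-like cells at dpi 25, and at 8311 and 984 at dpi 35. Pdgfra was at 303 and 210 CPM in the tumour glial-like cells of dpi 25 and dpi 35, and in PDGFRa-GFP at 207 in progenitor-like and 12.95 in neuronal-like cells. At dpi 35, 55.1% of tumour glial-like cells held a C1qb UMI, against 2.65% at dpi 25; the part of such stray RNA in the comparisons with myeloid-like cells was not tested. A share of UMIs is relative, so a high share of some genes lowers that of the members.

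The 5′ ends of some members are shown first, because the TOP tract is what sets these genes apart in sequence. Promoter windows of RefSeq (GRCm38.p6), from 250 bases before to 50 after an annotated start, were held for 63 of the 87 members. Each line below gives 30 bases, 10 before the start and 20 from it, which cover upstream sequence and the first bases of the first exon. Capitals mark the longest run of C and T. The first 5 genes were chosen to show such runs, and the paralogs Rps27l, Rpl22l1 and Rpl39l for the results that turn on them.
Rpl14: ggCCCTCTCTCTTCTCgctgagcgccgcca
Rpl15: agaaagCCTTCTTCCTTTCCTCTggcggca
Rpl35: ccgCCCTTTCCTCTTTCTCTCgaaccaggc
Rps27: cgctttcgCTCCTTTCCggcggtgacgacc
Rps6: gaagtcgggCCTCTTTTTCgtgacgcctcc
Rps27l: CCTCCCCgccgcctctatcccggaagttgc
Rpl22l1: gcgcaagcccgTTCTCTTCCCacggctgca
Rpl39l: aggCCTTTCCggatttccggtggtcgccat

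These stretches lie at chr9:120571507-120571536 (plus strand) for Rpl14, chr14:18270967-18270996 (minus) for Rpl15, chr2:39005112-39005141 (minus) for Rpl35, chr3:90213629-90213658 (minus) for Rps27 and chr4:86857348-86857377 (minus) for Rps6. Rps27l lies at chr9:66946076-66946105 (plus), Rpl22l1 at chr3:28805498-28805527 (plus) and Rpl39l at chr16:10170218-10170247 (plus). The run of Rps27 continues from the annotated start over 7 pyrimidines beginning with C, while the run of Rps27l lies before its start. A start at C followed without a break by pyrimidines, 5 or more in all, was found in 13 of 63 members (20.6%), against 3.01% of 27025 genes and 0% of 69 mitochondrial ribosomal protein genes. A run of at least 7 pyrimidines anywhere in the 30 bases was held by 33 of 63 members (52.4%) and by 20.5% of all genes. The letters CCGGAAG, searched on both strands of the 300-base window, were in 26 of 63 members (41.3%), in 9.93% of all genes, in 24.3% of the 1295 genes that were abundant in the PDGFRa-GFP library and in 37.7% of the mitochondrial ribosomal protein genes. The TATAAA letters were in 11.1% of members, 15.7% of all genes, 10.3% of the abundant genes and 7.25% of the mitochondrial ribosomal protein genes. A match is a description of the letters only, and annotated starts can lie some bases from the true one.

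Open chromatin at the members' promoters was read from 1 ATAC-seq peak list, which the authors made from PDGFRa-GFP cells of the E14.5 and P5 stages together. An interval of the list lay over the promoter window of 60 of 63 members (95.2%). The share was 44.5% over all genes and 97.8% over the 1295 genes with at least 100 CPM in the PDGFRa-GFP library, so members stood where other abundant genes stood. With windows moved by 100000 bases the shares were 0% for members and 3.72% for all genes. The 3 members without an interval were Rpl10l, Rpl39l and Rpl3l, which are also the members with the fewest UMIs in the PDGFRa-GFP library. The authors' fold of signal over background, where an interval was present, had a median of 9.60 for members, 9.60 for the abundant genes and 7.58 for all genes.

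Members held 11.2% of all UMIs in the PDGFRa-GFP library, 9.72% in hGFAP-GFP, 8.87% at dpi 25 and 21.4% at dpi 35. The dpi 35 library was made with 10x and the others with Drop-seq, so its higher share cannot be told apart from the platform and its counting. No member dominated: the 5 most abundant held 13.97%, 14.2%, 16.7% and 11.99% of the members' UMIs in the order of the libraries above. In the PDGFRa-GFP library those were Rps26 (4111 CPM), Rps29 (3718), Rpl41 (3239), Rps9 (2354) and Rps14 (2231). In hGFAP-GFP they were Rps29 (3360), Rpl41 (2984), Rps26 (2973), Rps28 (2348) and Rps24 (2180). At dpi 25 they were Rps26 (4317), Rplp1 (3230), Rpl32 (2746), Rpl41 (2402) and Rps14 (2119), and the most abundant at dpi 35 included Rplp1 (5615), Rpl41 (5080), Rpl13 (4919) and Rpl32 (4832). Rpl41, which encodes a very short peptide, was in the highest 5 of every library. At the other end Rpl3l, a paralog of Rpl3 known from striated muscle, had 3, 1, 1 and 20 UMIs, and Rpl10l, a paralog of Rpl10 known from testis, had 11, 14, 22 and 0.

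The order of members was most alike between the cortex libraries. Over the 83 shared members, each gene's share of the members' UMIs had a Spearman correlation of 0.90 between PDGFRa-GFP and hGFAP-GFP, with 0 members past 2-fold. It was 0.80 between PDGFRa-GFP and dpi 25, with 6 members past 2-fold, and 0.70 between hGFAP-GFP and dpi 25, with 10. Against dpi 35 it was 0.51 for PDGFRa-GFP, with 12, 0.52 for hGFAP-GFP, with 9, and 0.39 for dpi 25, with 24. Only dpi 35 is 10x, so platform and library cannot be told apart. These points share libraries and counting, so they describe the tables. Rpl24 was at 20.6, 23.4 and 18.9 CPM in the Drop-seq tables and at 2152 at dpi 35. The Drop-seq tables hold a separate entry in capitals, RPL24, at 672, 805 and 329 CPM, each below 2152. The part of counting in this difference was not tested. Rpl21 was at 1139, 1763, 170 and 3109. Entries named as pseudogenes, such as Rps26-ps1 (3484, 2798 and 2731 CPM in the Drop-seq tables), are outside the rule. Their UMIs came to 16.2%, 19.3% and 14.7% of the members' UMIs in Drop-seq and 0.454% at dpi 35. Rps3a1, Rps3a2 and Rps3a3 are near copies, so reads may be split between them.

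Within cortex, the members' share of UMIs was nearly the same in progenitor-like and neuronal-like cells. In the PDGFRa-GFP library it was 11.4% in 1809 progenitor-like cells and 10.9% in 1004 neuronal-like cells, a ratio of 1.05 (interval 1.04 to 1.05). In hGFAP-GFP it was 10.7% in 385 and 9.83% in 207 cells, a ratio of 1.09 (1.08 to 1.09). These differences are small beside the spread inside a class: the 7 progenitor-like clusters of PDGFRa-GFP lay between 8.94% and 14.8%, and its 3 neuronal-like clusters between 8.18% and 11.4%. The classes also differ in depth, with median UMIs per cell of 2481 and 1436 in PDGFRa-GFP and 5105 and 3126 in hGFAP-GFP; the part of depth in the ratios was examined only by thinning, reported with the other processing choices.

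The spread inside the progenitor-like class followed its clusters. In PDGFRa-GFP the highest were a primitive OPC cluster led by the immediate early genes Fos, Junb and Egr1 (14.8%) and an OPC cluster led by Matn4 (14.8%). A further OPC cluster, led by Emid1 and with Cspg4 among its first genes, was at 10.0%. The 4 progenitor-like clusters led by cycling genes lay between 8.94% and 10.4%, and an unnamed cluster led by the DNA replication genes Ung and Mcm2 was at 12.3%. In hGFAP-GFP the primitive OPC cluster was again highest, at 13.8%, and the largest cycling cluster, led by Ung, Mcm3, Hells and Mcm2, followed at 12.1% (104 cells). Its other cycling clusters were lower, at 7.42% and 9.63% for the histone-led ones and 9.36% for the one led by Cdc20. With cycling clusters left out, the progenitor over neuronal ratio on the log2 scale was 0.25 in PDGFRa-GFP and 0.38 in hGFAP-GFP, against 0.06 and 0.12 with them. The ratio was thus larger without the cycling clusters in both libraries. Astrocyte-like clusters were lower, at 8.49% (46 cells) and 6.60% (111 cells). The choroid plexus cluster of PDGFRa-GFP was at 6.86% (53 cells); marker genes took 30.4% of its UMIs, and without them the share was 9.85%.

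**Figure D1:**
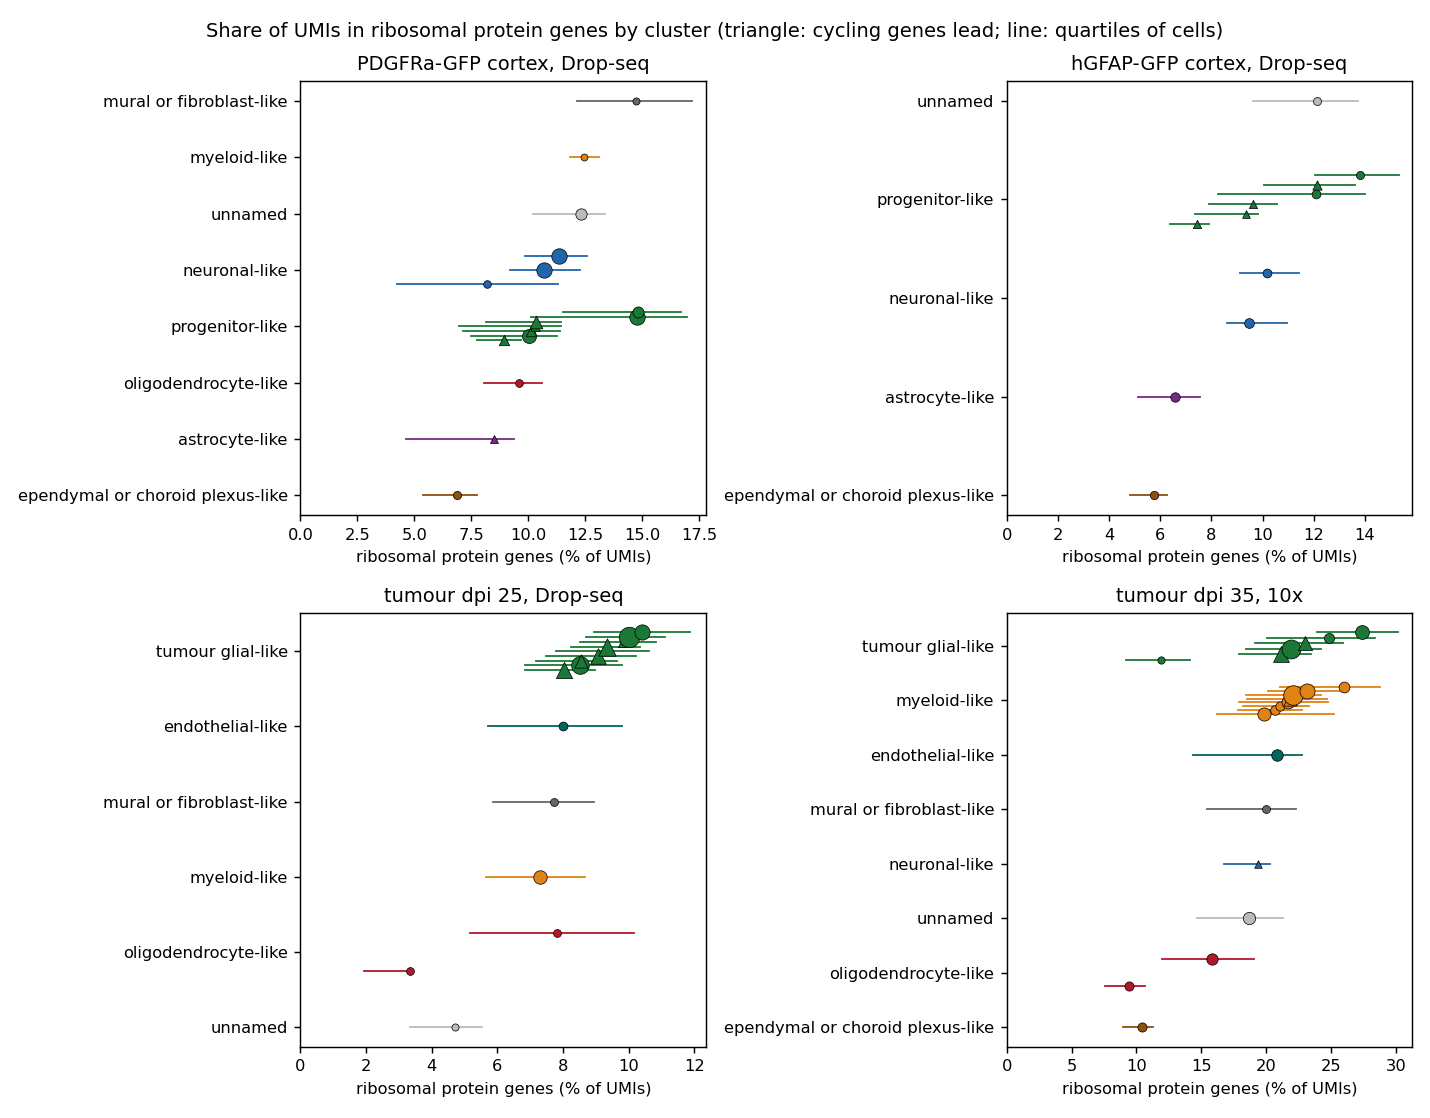
Each point is a cluster, placed by the percent of its UMIs in ribosomal protein genes (horizontal axis) and by class (vertical axis), in 1 panel per library; larger points hold more cells, triangles mark clusters led by cycling genes, and lines span the quartiles of cells. In each tumour panel the lowest point is the oligodendrocyte-like cluster with Apod and Mal (3.32% and 9.46%).

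Taken gene by gene, few members stood apart between progenitor-like and neuronal-like cells. In PDGFRa-GFP 2 of 83 members were more than 1.5-fold higher in progenitor-like cells, where 28.5% of all genes were, and 0 were more than 1.5-fold lower, where 16.8% of all genes were. The 2 were the paralogs Rps27l, at 354 against 227 CPM (log2 ratio 0.64), and Rpl22l1, at 742 against 479 (0.63). Rplp1, an acidic protein of the ribosomal stalk that recruits translation factors, followed at 2133 against 1460 (0.55). Lower in progenitor-like cells were Rpl10, which joins the large subunit late in its assembly, at 868 against 1110 (-0.35), Rps27 at 1598 against 1952 (-0.29) and Rps7 at 1111 against 1336 (-0.27). The median over members was 0.07 and over all genes 0.09.

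The hGFAP-GFP library gave 3 of 83 members higher past 1.5-fold in progenitor-like cells, beside 23.9% of all genes, and 1 lower, beside 21% of all genes. Among genes with at least 20 UMIs expected in each class, 19.6% were higher. The higher ones were Rps27l, at 310 against 172 CPM (log2 ratio 0.85), Rpl7l1, at 116 against 68.1 (0.77), and Rplp1, at 1600 against 1005 (0.67). Rpl22l1 was at 647 against 436 (0.57). The lower one was Rps4y2, at 21.6 against 35.4 CPM, whose interval (-1.41 to 0.02 on the log2 scale) spans 0. The members' median was 0.12 and that of all genes 0.01. The cortex libraries come from different mice: 31 of 83 members had intervals above 0 in both and 11 had intervals below 0 in both, among them Rpl10, Rps7, Rps27 and Rpl11, a member that binds Mdm2. These are 37.3% and 13.3% of members, beside 14.4% and 11.99% of 9970 genes tested in both, and 23.5% and 26.03% of the 1771 with a mean of at least 100 CPM. In 3 members the intervals lay on opposite sides: Rpl28 (-0.12 in PDGFRa-GFP and 0.17 in hGFAP-GFP), Rpl22 (-0.08 and 0.17) and Rpl21 (-0.09 and 0.10).

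Oligodendrocyte-like cells had a lower share than progenitor-like or tumour glial-like cells in the 3 libraries that held them. In PDGFRa-GFP it was 9.61% in 38 cells of 1 cluster against 11.4% in progenitor-like cells, a ratio of 1.19 (1.17 to 1.21). At dpi 25 it was 5.63% in 80 cells against 9.14% in 4385 tumour glial-like cells, a ratio of 1.62 (1.59 to 1.65). At dpi 35 it was 13.8% in 311 cells against 22.9% in 2257 cells, a ratio of 1.66 (1.66 to 1.67). The comparisons within the tumours were added after the clusters had been seen. No cluster of hGFAP-GFP was oligodendrocyte-like. Low shares were not particular to oligodendrocyte-like cells. The ependymal-like cluster was at 10.4% (96 cells) at dpi 35 and at 5.76% (61 cells) in hGFAP-GFP, the lowest of that library.

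Inside the oligodendrocyte-like class the share was lower in the cluster of mature myelin genes. The cluster with Apod and Mal among its first genes, both known from myelinating cells, was at 3.32% (39 cells) at dpi 25 and at 9.46% (98 cells) at dpi 35. The cluster with Enpp6, a gene of newly formed oligodendrocytes, was at 7.80% (41 cells) and 15.8% (213 cells). The PDGFRa-GFP cluster also had Enpp6 among its first genes. The median depths of the mature and the Enpp6 cluster were close, at 2233 and 2399 UMIs per cell at dpi 25 and at 8534 and 8251 at dpi 35. Marker genes took 7.43% of the class's UMIs at dpi 25, and leaving them out of the denominator gave a log2 ratio of 0.62 in place of 0.70.

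The difference from oligodendrocyte-like cells ran through nearly every member. At dpi 25, 62 of 83 members were more than 1.5-fold higher in tumour glial-like cells, beside 30.6% of all genes, and 1 was lower, beside 26.2%. Among genes with at least 20 UMIs expected in each class, these were 76.5% of members and 42.5% of all genes, and 8.32% of all genes were lower. At dpi 35, 55 of 81 members (67.9%) were higher past 1.5-fold, beside 31.6% of all genes, and 0 lower, beside 18.5%. With at least 20 UMIs expected in each class these shares of all genes were 29% and 17.1%. All 81 members had intervals above 0 there, and the median over members was 0.72 on the log2 scale against 0.19 over all genes.

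Members differed in how far they went. At dpi 35 the highest were Rpl12, at 2309 against 1042 CPM (log2 ratio 1.15), Rpl13, at 6382 against 2986 (1.10), and Rpl23a, at 4901 against 2352 (1.06). The lowest were Rps21, at 1434 against 1180 (0.28), Rpl3, at 1423 against 1169 (0.28), and Rps3, at 2305 against 1880 (0.29). At dpi 25 Rpl5, which with Rpl11 binds Mdm2, was at 742 against 309 (1.26) and Rpl12 at 375 against 174 (1.11). The exception at dpi 25 was Rpl24, at 18.5 against 44.9 (-1.28). The Drop-seq tables hold more UMIs under the entry RPL24, in capitals, and whether both entries count the same gene was not tested. In PDGFRa-GFP, 7 of 83 members were higher past 1.5-fold in progenitor-like cells, beside 25.9% of all genes, and 0 lower, beside 28.9%. Among genes with at least 20 UMIs expected in each class, 6 of 80 members were higher, beside 28.9% of 1351 genes. None of these members was lower, beside 11.9%. The median over members was 0.26, beside -0.04 over all genes and 0.21 over those 1351. Rpl21 led there, at 1151 against 501 CPM, while Rplp1 was at 2133 against 2991 (-0.49). With 38 cells, 38 of the 83 intervals of that comparison spanned 0.

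The myeloid-like cells, which are microglia and macrophages by their markers, differed from tumour glial-like cells at dpi 25 and hardly at dpi 35. At dpi 25 the share was 9.14% in tumour glial-like and 7.30% in 348 myeloid-like cells, a ratio of 1.25 (1.24 to 1.26), and each of the 9 tumour glial-like clusters, at 8.02% to 10.4%, lay above the 1 myeloid-like cluster. At dpi 35 it was 22.9% against 21.9% in 2700 myeloid-like cells, a ratio of 1.04 (1.04 to 1.04). There the clusters overlapped: 6 tumour glial-like clusters ran from 11.9% to 27.3% and 8 myeloid-like clusters from 19.8% to 26.01%. The lowest was a cluster of 19 cells led by the astrocyte gene Aqp4, and the highest myeloid-like cluster was led by the antigen presentation genes H2-Aa and Cd74. The difference between the tumour libraries was not tested, and they differ in platform as well as in dpi.

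At dpi 25, 15 of 85 members were higher past 1.5-fold in tumour glial-like than in myeloid-like cells, beside 47.4% of all genes, and 2 were lower, beside 19.8%. At dpi 35 these were 5 of 82, beside 54.3% of all genes, and 4, beside 20.3%. Among genes with at least 20 UMIs expected in each class, the higher share was 54.6% at dpi 25 and 54.1% at dpi 35. The lower share of such genes was 10.8% and 19.5%. The median over members was 0.33 at dpi 25 and 0.05 at dpi 35, below the medians over all genes (0.52 and 0.72). Rps27l led both comparisons, at 1118 against 539 CPM at dpi 25 (1.05, interval 0.92 to 1.19) and at 1008 against 547 at dpi 35 (0.88, 0.85 to 0.91). Rpl23a was at 683 against 369 (0.89) and at 4901 against 3052 (0.68). Rps2 was at 1119 against 605 at dpi 25 (0.89), and Rpl22l1 at 1251 against 811 at dpi 35 (0.63).

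A small group was higher in myeloid-like cells of both tumours. Rps29 was at 1728 in tumour glial-like against 2227 in myeloid-like cells at dpi 25 (-0.37) and at 3349 against 5098 at dpi 35 (-0.61). Rps24 was at 1154 against 1320 (-0.19) and at 1892 against 3384 (-0.84). Rpl10 was at 540 against 677 (-0.33) and at 2509 against 3786 (-0.59). These 3 were the members with intervals below 0 in both tumours, while 45 of the 81 shared members had intervals above 0 in both. Below 0 in both were 3.70% of members, 15.1% of all genes and 22.9% of genes with a mean of at least 100 CPM. Above 0 in both were 55.6%, 39.1% and 58.7%, so members stood near other abundant genes there. Fau, which is made as a fusion with the small subunit protein S30 and is outside the rule, was at 950 against 1669 and at 2197 against 4370. In 20 members (24.7%) the interval was above 0 at dpi 25 and below 0 at dpi 35, beside 0.688% of 11338 genes tested in both and 3.01% of the 1527 with a mean of at least 100 CPM. Abundant genes have narrow intervals, so small ratios of either sign clear 0 more often. Among them were Rplp0, the core of the stalk (0.61 and -0.11), Rps6, the substrate of the S6 kinases (0.21 and -0.36), Rpl10a (0.23 and -0.34) and Rpl3 (0.31 and -0.24).

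**Figure D2:**
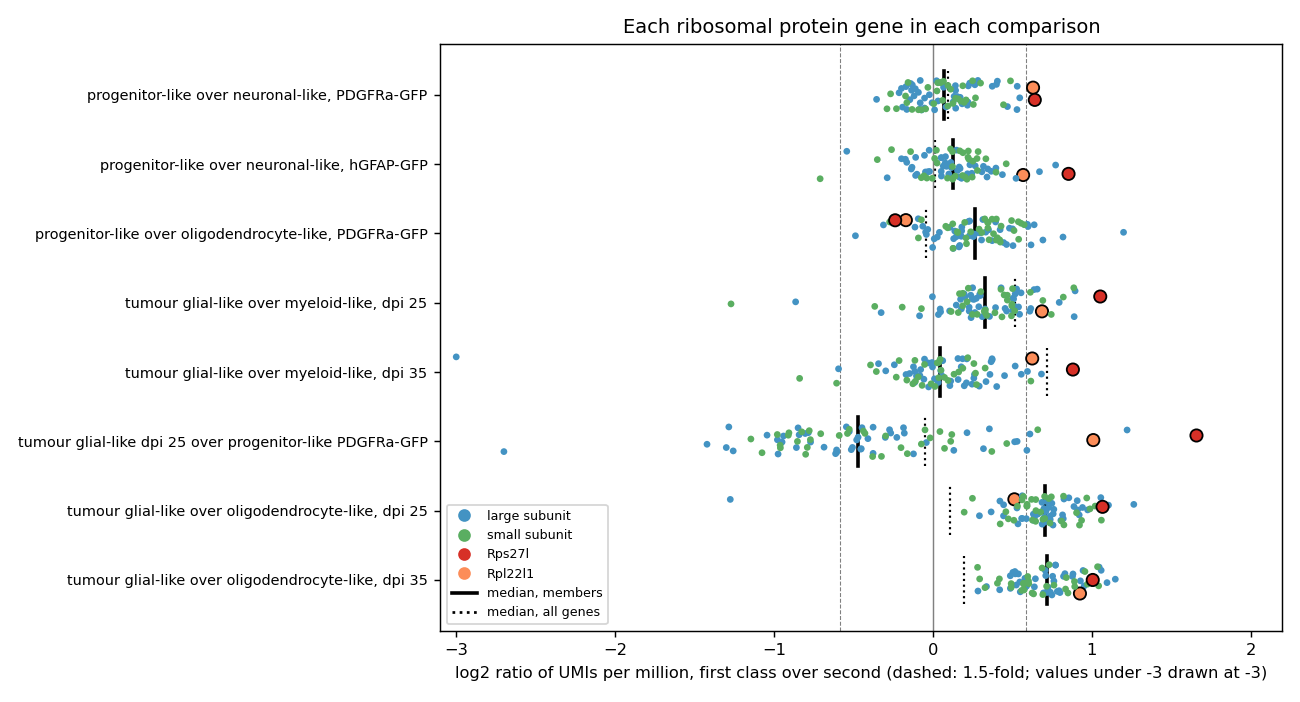
Each point is 1 ribosomal protein gene, placed by its log2 ratio of CPM between the classes named on the axis, for 8 comparisons; solid bars are medians over members, dotted bars medians over all genes, dashed lines 1.5-fold, and Rpl39l at dpi 35 is drawn at -3. The members' medians are highest against oligodendrocyte-like cells of the tumours (0.70 and 0.72), and Rps27l (red) lies at the top of 5 of the 8 comparisons.

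Rpl39l, a paralog of the large subunit gene Rpl39 known from male germ cells, had few UMIs and an uneven pattern at dpi 35. Of its 192 UMIs there, 156 were in myeloid-like cells, 27 in endothelial-like cells, 1 in tumour glial-like cells and 0 in oligodendrocyte-like cells, where a count of 0 allows up to 1.04 CPM. The log2 ratio of tumour glial-like over myeloid-like cells was -6.67 with a wide interval (-11.98 to -4.17). At dpi 25 it had 40 UMIs in tumour glial-like cells (3.99 CPM) and 2 in myeloid-like cells (2.30 CPM), and the interval of that log2 ratio (-1.15 to 3.89) spans 0. A count this low cannot be followed further there.

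Tumour glial-like cells of dpi 25 were set against progenitor-like cells of PDGFRa-GFP, both by Drop-seq. Members held 9.14% and 11.4% of UMIs, a ratio of 0.798 (0.796 to 0.801). Of 85 members, 35 were lower past 1.5-fold in the tumour cells, beside 26.9% of all genes, and 6 were higher, beside 22.3%. The median over members was -0.47 and over all genes -0.05. Tissue, mouse line, age, sort and library differ together here and cannot be told apart. The lowest was Rpl21, at 177 against 1151 CPM (-2.70), a gene whose level also moved between the tables. Rpl30, at 300 against 805 (-1.42), and Rpl28, at 241 against 593 (-1.30), came next. The members that were higher were mostly those already named: Rps27l at 1118 against 354 (1.66, interval 1.59 to 1.73), Rpl22l1 at 1493 against 742 (1.01), Rps2 at 1119 against 708 (0.66), Rplp1 at 3257 against 2133 (0.61) and Rpl7l1 at 132 against 87.9 (0.59).

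Rps27l was the member that departed most from the others between classes of the same library. The measure planned first, the standard deviation over classes of all libraries, put Rps26 (0.97) and Rpl28 (0.94) above Rps27l (0.79). That measure also takes in differences between libraries. Over the 77 members with enough UMIs in every class, its share of ribosomal protein UMIs varied most between classes of a library, with a standard deviation of 0.54 on the log2 scale against a median of 0.17. Rpl38 (0.40), Rpl22l1 (0.37), Rpsa (0.34) and Rplp1 (0.33) followed. At dpi 25 all 9 tumour glial-like clusters, at 977 to 1272 CPM of Rps27l, lay above every other cluster, at 381 to 758. At dpi 35 the tumour glial-like clusters were at 736 to 1077, apart from the astrocyte cluster at 534, and the others at 321 to 831. In PDGFRa-GFP the neuronal-like clusters were at 93 to 256.

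As a share of the pair Rps27l and Rps27, Rps27l made up 51.3% (50.6 to 51.95) of UMIs in tumour glial-like cells of dpi 25, 41.8% in myeloid-like and 44.03% in oligodendrocyte-like cells. At dpi 35 the values were 34.7% (34.3 to 35.2), 22.8% and 28.7%. In the cortex libraries they were 18.1% (17.4 to 18.9) in progenitor-like and 10.4% (9.43 to 11.5) in neuronal-like cells of PDGFRa-GFP, and 17.7% and 9.05% in hGFAP-GFP. The highest in PDGFRa-GFP were oligodendrocyte-like (27.5%) and choroid plexus cells (29.1%), and in hGFAP-GFP ependymal-like cells (32.01%). The dpi 35 table also counts Rps27rt, a near copy of Rps27, at 223 CPM, which the Drop-seq tables used here do not list, so classes are compared within a library only. For Rpl22l1 and Rpl22 the share was 45.9% in tumour glial-like, 42.1% in myeloid-like and 51.9% in oligodendrocyte-like cells of dpi 25, and 45.5%, 37.7% and 45.2% at dpi 35. It was 32.9% in progenitor-like and 22.97% in neuronal-like cells of PDGFRa-GFP, and 34.5% and 28.5% in hGFAP-GFP. Both paralogs thus made up more of their pair in progenitor-like than in neuronal-like cells of each cortex library.

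**Figure D3:**
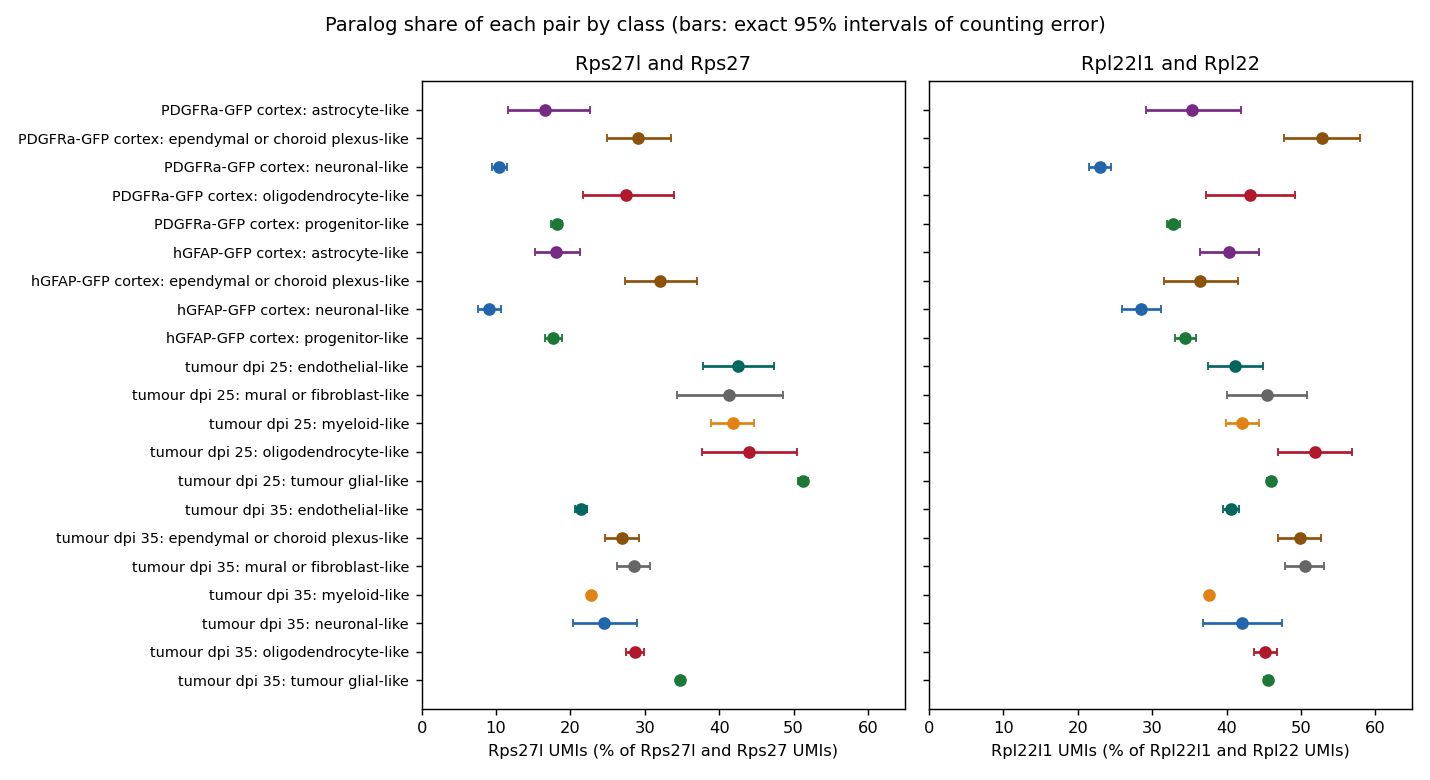
Percent of the pair's UMIs that come from the paralog, for Rps27l with Rps27 and Rpl22l1 with Rpl22, by class and library for classes of at least 20 cells; bars are exact 95% intervals of UMI counts. Within each tumour library Rps27l is highest in tumour glial-like cells (51.3% and 34.7%), and within each cortex library it is lowest in neuronal-like cells (10.4% and 9.05%).

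Since Rps27l is known as a p53 target, other targets of p53 were read from a list of 12 such genes, which does not hold Rps27l. Between tumour glial-like cells of dpi 25 and progenitor-like cells of PDGFRa-GFP, 8 of 11 were higher, with a median log2 ratio of 0.90 beside -0.05 over all genes. Cdkn1a, the cell cycle inhibitor p21, was at 200 against 15.9 CPM there, and at 200 against 192 between tumour glial-like and myeloid-like cells of dpi 25. Against myeloid-like cells, 11 of 11 were higher at dpi 25 (median 0.70, all genes 0.52) and 9 of 12 at dpi 35 (0.73, all genes 0.72). Against oligodendrocyte-like cells of dpi 25, 5 of 8 were higher (0.39, all genes 0.11), and 7 of 10 at dpi 35 (0.49, all genes 0.19). Between progenitor-like and neuronal-like cells 6 of 9 were higher in PDGFRa-GFP (0.36, all genes 0.09) and 3 of 7 in hGFAP-GFP (median -0.0038, all genes 0.01). Against oligodendrocyte-like cells of PDGFRa-GFP, 2 of 7 were higher in progenitor-like cells (-0.41, all genes -0.04). With at least 20 UMIs expected in each class, medians over genes were 0.69 (dpi 25) and 0.70 (dpi 35) against myeloid-like cells. Against oligodendrocyte-like cells they were 0.47 at dpi 25, above the list's 0.39, 0.18 at dpi 35 and 0.21 in PDGFRa-GFP. The part of p53 in the level of Rps27l was not tested.

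Other lists of the translation machinery were read beside the members. Genes of ribosome biogenesis, which make and process ribosomal RNA in the nucleolus, were higher in tumour glial-like than myeloid-like cells in 23 of 24 at dpi 25 (median log2 ratio 1.01) and 24 of 24 at dpi 35 (0.97). Of all genes, 67.7% were higher at dpi 25 (median 0.52) and 70.6% at dpi 35 (0.72). With at least 20 UMIs expected in each class these were 78.4% (0.69) and 71.1% (0.70). Ncl, the abundant nucleolar protein nucleolin, was at 2727 against 1467 CPM and at 688 against 347. The members' median at dpi 35 was 0.05. Mitochondrial ribosomal proteins, which belong to the ribosome of mitochondria, were higher in 71 of 75 at dpi 25 (0.75) and 74 of 76 at dpi 35 (0.58), a median above that of all genes at dpi 25 and below it at dpi 35. Against progenitor-like cells of PDGFRa-GFP, the dpi 25 tumour cells had 73 of 75 mitochondrial ribosomal proteins higher (0.59), where the cytoplasmic members had a median of -0.47. In that comparison 47.5% of all genes were higher (median -0.05), and tissue, mouse line, age, sort and library cannot be told apart. Other genes with a TOP start, such as translation factors, were higher against oligodendrocyte-like cells in 18 of 18 in both tumours (0.65 and 0.53), where 54.2% of all genes were higher at dpi 25 (median 0.11) and 60.1% at dpi 35 (0.19). With at least 20 UMIs expected in each class these were 75.6% (0.47) and 60.3% (0.18). Between progenitor-like and neuronal-like cells 8 of the 18 TOP genes were higher and 10 lower in each cortex library, with medians of -0.06 and -0.09. Of all genes, 55.4% were higher in PDGFRa-GFP (median 0.09) and 50.6% in hGFAP-GFP (0.01).

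Rpl38, known for its part in the translation of Hox messages, was highest in endothelial-like cells of the tumours. At dpi 35 it was at 3821 CPM there, at 1931 in tumour glial-like, 1615 in myeloid-like and 1330 in oligodendrocyte-like cells. At dpi 25 the values were 1437, 807, 689 and 593. The order of the 4 classes was thus the same in both libraries.

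Among tumour glial-like clusters of both tumours, the highest share belonged to a cluster led by genes of the response to low oxygen. This comparison was made after the shares had been seen, so counts of members higher in it are no separate support. At dpi 25 the OPC cluster led by Ero1l, Bnip3 and Ndrg1 was at 10.4% (476 cells) and the other OPC clusters together at 9.34% (1633 cells), with 75 of 84 members higher and a members' median log2 ratio of 0.15. The pooled clusters differed: the one led by Snhg4 and Mcm2 was at 10.0% (951 cells), close to the low oxygen cluster, and the one led by Cdkn2b at 8.51% (682 cells). A cycling cluster led by Bnip3 and Ankrd37, also genes of low oxygen, was at 9.82% (147 cells), below the former. Past 1.5-fold 0 members were higher, beside 9.4% of all genes, and 1 was lower (Rpl39l), beside 14.8%. Rpl39l had 21 UMIs over both sides, and its interval (-3.28 to 0.90 on the log2 scale) spans 0. At dpi 35 the cluster led by Vegfa, Ero1l and Bnip3 was at 27.3% (372 cells). The other OPC clusters not led by cycling genes were together at 22.5% (945 cells). The one led by Rasl11a and Hmga2 was at 21.9% (797 cells) and the one led by Hspa1a and Hspa1b at 24.8% (148 cells). In the low oxygen cluster 81 of 81 members were higher, with a median log2 ratio of 0.28. Past 1.5-fold 1 member was higher there, beside 4.73% of all genes, and 0 lower, beside 17.1%. It was Rpl3, at 2035 against 1327 CPM. Of all genes, 43.9% were higher in the low oxygen cluster at dpi 25 and 36.3% at dpi 35. Median depths were 1911 and 1821 UMIs per cell at dpi 25, and 5974 and 5437 at dpi 35.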

How the data were processed

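The 4 droplet libraries (Drop-seq of PDGFRa-GFP cortex, hGFAP-GFP cortex and the dpi 25 tumour, 10x of the dpi 35 tumour) were each analysed alone. For Drop-seq the authors deposited a signal, UMIs scaled to 10000 per cell. Each cell's values were multiples of the same step, and division by it gave UMIs: at a tolerance of 0.1, 100% of cells had 99% or more whole values. The deposited dpi 35 values are raw UMI counts. STAR, Cell Ranger, CASAVA, Bowtie2, HOMER, MACS2 2.12 and the builds mm10 and rn5 are named, without roles, in the submitters' processing notes. The deposited peak list, 93170 summits in 76321 intervals, gives a fold ratio of signal over background, which was used, and -log10 p and q values of the authors, which were not. Its intervals were read on GRCm38, the reference behind mm10, because the notes name mm10, and the strand of counting is not given in the sources used here.

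Cells with at least 200 genes were clustered in scanpy 1.11.5 (2000 variable genes without the members, 30 principal components, 15 neighbours, Leiden resolution 1, leidenalg 0.10.2, seed 20). Scrublet called 5, 4, 0 and 125 doublets, which were removed; the low Drop-seq numbers leave doublets possible there. A cluster took the class whose markers had the highest mean log2 level above the lower quartile of clusters, with at least 3 markers raised and a margin of 0.4 to the next class. Clusters in which cycling markers scored highest were placed in the progenitor-like or tumour glial-like class with no margin asked, so they may hold other dividing cells. This rule, its margin and the handling of cycling clusters were settled after the clusters and marker scores had been seen. The rule tried first left 2689 of the 4955 dpi 25 cells unnamed, and a margin of 0.5 left 1172, where the rule used left 14.

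UMIs were summed per class. Shares have exact Clopper-Pearson 95% intervals and ratios exact conditional ones. A gene was counted past 1.5-fold where both classes together held at least 20 UMIs, and a count of 0 was set to 3 UMIs as a bound. The arithmetic was tested on simulated data. Named genes are the 5 highest and 5 lowest members of each comparison with at least 100 UMIs, of which the text gives a part. Others are the 5 most abundant of each library, the paralogs, and the 5 that depart most between classes of a library. The C1 cells were not used here, and 1 abundant member is not reported here by name. The members, lists and comparisons were chosen with earlier results of these data known.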

Additional observations from a re-analysis of the deposited data

Results flagged for a closer look

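In 20 of 81 members the tumour glial-like over myeloid-like ratio had intervals on opposite sides of 0 in the tumour libraries, each time above 0 at dpi 25 and below 0 at dpi 35. In 3 of 83 members (Rpl21, Rpl22 and Rpl28) the progenitor-like over neuronal-like ratio did so between the cortex libraries. Opposite sides were found in 24.7% of members, 1.98% of all genes and 4.13% of genes with a mean of at least 100 CPM (UMIs per 1000000) between the tumours, and in 3.61%, 1.02% and 1.52% between the cortex libraries. The intervals cover counting only, and with 1 library per group the differences between libraries were not tested.

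Entries outside the rule bore names close to those of members. Whether their UMIs come from the messages of the members was not tested. The entry RPL24, in capitals, was at 672 CPM in PDGFRa-GFP, 805 in hGFAP-GFP and 329 at dpi 25. Entries named as pseudogenes of the members held UMIs equal to 16.2% of the members' UMIs in PDGFRa-GFP, 19.3% in hGFAP-GFP, 14.7% at dpi 25 and 0.454% at dpi 35.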

How the results depend on the processing

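No ratio of the members' share changed sign under the alternatives that were run, but several moved by more than their counting interval. For progenitor-like over neuronal-like cells of PDGFRa-GFP (log2 ratio 0.06) the values were 0.021 at Leiden resolution 0.5, 0.021 as a mean over cells, 0.055 without mitochondrial genes, 0.036 thinned to 1000 UMIs per cell, 0.30 with each cell classed by its own markers, 0.25 without cycling clusters and 0.10 with clusters named by their leading genes. In hGFAP-GFP (0.12) they were 0.10 as a mean over cells, 0.10 thinned, 0.25 by each cell's markers, 0.38 without cycling clusters and 0.29 by leading genes. For progenitor-like over oligodendrocyte-like cells (0.25) they were 0.29 thinned, 0.32 by each cell's markers, 0.44 without cycling clusters, 0.22 without marker genes and 0.29 by leading genes. For tumour glial-like over myeloid-like cells of dpi 25 (0.32) they were 0.30 clustered with the members, 0.31 as a mean, 0.39 without cycling clusters, 0.34 with pseudogene entries, 0.30 without marker genes and 0.25 by leading genes. At dpi 35 (0.06) they were 0.037 as a mean, 0.093 without mitochondrial genes, 0.038 thinned, 0.025 by each cell's markers, 0.12 without cycling clusters, 0.021 without marker genes and 0.027 by leading genes. For dpi 25 over PDGFRa-GFP (-0.32) they were -0.35 with the members, -0.33 at resolution 0.5, -0.27 as a mean, -0.28 without mitochondrial genes, -0.46 by each cell's markers, -0.44 without cycling clusters, -0.34 with pseudogene entries, -0.33 at a margin of 0.5 and -0.44 by leading genes. For tumour glial-like over oligodendrocyte-like cells of dpi 25 (0.70) they were 0.66 with the members, 0.75 at resolution 0.5, 0.74 as a mean, 1.04 by each cell's markers, 0.77 without cycling clusters, 0.62 without marker genes and 0.62 by leading genes. At dpi 35 (0.73) they were 0.69 with the members, 0.74 at resolution 0.5, 0.68 as a mean, 0.75 without mitochondrial genes, 0.69 thinned, 0.94 by each cell's markers, 0.79 without cycling clusters, 0.69 without marker genes and 0.71 by leading genes. The cause of these moves was not tested. Scaled to the members' own UMIs, the number past 1.5-fold was 0 in place of 2 (PDGFRa-GFP, neuronal-like), 2 in place of 7 (oligodendrocyte-like), 5 in place of 17 (dpi 25, myeloid-like) and 27 in place of 41 (dpi 25 over PDGFRa-GFP). At 2-fold these were 0, 1, 2 and 11, with 0 in place of 4 in hGFAP-GFP and 1 in place of 9 at dpi 35. The pseudogene entries, the naming rules, the denominator without markers and both tumour comparisons with oligodendrocyte-like cells were added after seeing the data. No paired analysis was possible because each group is 1 library. The C1 alternatives and the oligodendrocyte-like comparison of hGFAP-GFP were not run. Depth limits the members under 20 UMIs.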

Other observations

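Some clusters entered no comparison. Unnamed clusters were at 12.3% in PDGFRa-GFP (211 cells, led by Ung and Mcm2), 12.1% in hGFAP-GFP (47 cells), 4.71% at dpi 25 (14 cells) and 18.6% at dpi 35 (270 cells, with 39.5% of UMIs from mitochondrial genes). In the tumours endothelial-like cells were at 7.99% and 20.9%. The small mural and myeloid-like clusters of PDGFRa-GFP were at 14.7% (12 cells) and 12.5% (6 cells).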
